A study of Mus musculus with 5 samples.

Results

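The unfolded protein response and chaperone genes of the endoplasmic reticulum (ER) were examined in mouse hearts after a short ischemia and reperfusion. The list held 34 gene symbols, and each was represented by the probe that carried its symbol alone and had the highest mean over all arrays. Of the 34 symbols, 33 were measured, out of 22180 symbols on the array, and all 33 lay above the level filter that left 15294 genes for testing. Pdia4, a protein disulfide isomerase, shares its probe with a microRNA gene and was not measured here. The list was split by role into 20 ER chaperone and degradation genes known as targets of ATF6 and XBP1 (19 measured), 6 sensors and transcription factors, and 8 genes known as targets of ATF4.

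All hearts came from wild-type C57Bl6J mice at zeitgeber time 12 and went through the same perfusion outside the body on a Langendorff apparatus, with 20 min of stabilisation, 20 min without flow and 20 min of renewed flow. The sham group (n = 2 hearts) underwent this protocol without an antagonist. The antagonist group (n = 3 hearts) came from mice that had received a REV-ERB alpha antagonist intraperitoneally at 10 µM, 4 h and 1 h earlier. REV-ERB alpha is a nuclear receptor that represses transcription as part of the circadian clock. The labels do not name the compound or any vehicle given to sham mice, and every heart was reperfused, so no value describes unperfused tissue.

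Secretory and membrane proteins fold in the ER with the help of chaperones, and misfolded ones are returned to the cytosol for degradation. Unfolded protein activates 3 sensors: ATF6, which is cut to release a transcription factor; IRE1 (Ern1), which splices the mRNA of the factor XBP1; and PERK (Eif2ak3), which phosphorylates eIF2 alpha, slows translation and lets ATF4 accumulate. ATF6 and XBP1 are known to drive chaperone and degradation genes, whereas ATF4 drives genes of amino acid supply and stress signalling. In heart muscle the ATF6 branch is known to respond to ischemia and reperfusion.

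Chaperone and degradation genes were mostly higher in the antagonist hearts by small amounts, up to 1.40-fold, and no gene passed the test across all genes. Of the 33 measured genes, 30 had a higher mean with the antagonist and 3 a lower one, beside 47.7% of all genes tested with a higher mean and 46.3% with a lower one. The antagonist arrays lay above both sham arrays for 16 of the 33, and below both for 0. The corresponding shares of all genes tested were 6.19% above and 6.33% below. Arrays often gave exactly equal values for a gene, and a tie between a sham and an antagonist array prevents such a gap. Only 15 of the 33 genes had 5 different values, and 12 of these 15 were above, beside 15.1% above and 15.9% below among all genes with 5 different values. Among all genes whose level was at least the median level of the 33 (7.27), the share above was 10.7%. These 2 further backgrounds were chosen after seeing the data. The 16 gaps ranged from 0.0043 to 0.30 on the log2 scale, and 8 were under 0.06.

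With limma, 0 of the 33 genes reached an adjusted p under 0.05 over all 15294 genes, where 0% of genes were called, and their smallest adjusted p was 0.64. At an unadjusted limma p under 0.05 there were 7 of the 33, all higher, beside 2.23% of all genes tested that were higher at that level and 2.37% that were lower: Hspa5, Hyou1, Pdia6, Creld2, Herpud1, Derl1 and Atf6. An exact permutation test (two-sided, 10 possible splits) gave 10 of the 33 genes a p of 0.10, the lowest available with 2 against 3 arrays. No share of all genes is given beside that permutation count, so it does not show whether 10 of 33 is many. With a single sham array left, limma called 1 member without sham replicate 1 (Dnajb11) and 7 without sham replicate 2 (Canx, Derl1, Eif2ak3, Ern1, Sdf2l1, Sel1l and Syvn1), while over all genes it called 1319 and 2058. For Canx, Eif2ak3 and Syvn1 the 3 antagonist values were exactly equal, so the error in that comparison does not measure the spread between hearts. Dnajb11, Ern1 and Sel1l had only 2 different antagonist values, while Derl1 and Sdf2l1 had 3. Canx was lower with the antagonist there (-0.05).

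Arrays differed in ways that touch these counts. Sham replicate 1 alone had the lowest value for 18 of the 33 genes (54.5%), compared with 25.9% of all genes tested. Antagonist replicate 2 alone had the highest value for 15 of the 33 (45.5%), compared with 14.8% of all genes. That array also carried a summed linear level of 8 atrial markers of 12480, against 3771 to 4760 in sham and 4023 to 4168 on the other antagonist arrays, and its 6 mesothelial markers summed to 257, against 128 to 138 elsewhere. Markers of other cell types differed between the groups on several arrays. The 8 endothelial markers summed to 2979 to 2996 in sham and 2772 to 2785 with the antagonist (4 higher and 4 lower), and the 6 smooth muscle and pericyte markers to 3028 to 3430 and 2740 to 2967 (1 higher and 5 lower). For fibroblasts 1 of 8 markers was higher and 6 were lower, with overlapping sums of 4458 to 4671 in sham and 3945 to 4814 with the antagonist. For adipocytes 6 of 7 measured markers were higher and 1 was lower, by a median of 0.70, with sums of 1992 to 1996 and 1849 to 2409 and with Adipoq below the level filter. The part of these cells in the results was not tested. Without antagonist replicate 2 the antagonist arrays lay above sham for 17 of the 33 genes, beside 8.76% of all genes, without sham replicate 1 for 20, beside 19.6%, and without sham replicate 2 for 22, beside 28.1%. All 10 heart muscle cell markers were above the level filter. Of 9 measured markers of B and plasma cells, a secretory cell type rich in ER chaperones, 6 were below the filter (Cd79a, Cd79b, Ms4a1, Jchain, Tnfrsf17 and Pou2af1), and the list summed to 114 to 124 in sham and 108 to 123 with the antagonist. In whole tissue, fewer cells of a type and less RNA per cell cannot be told apart.

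**Figure D1:**
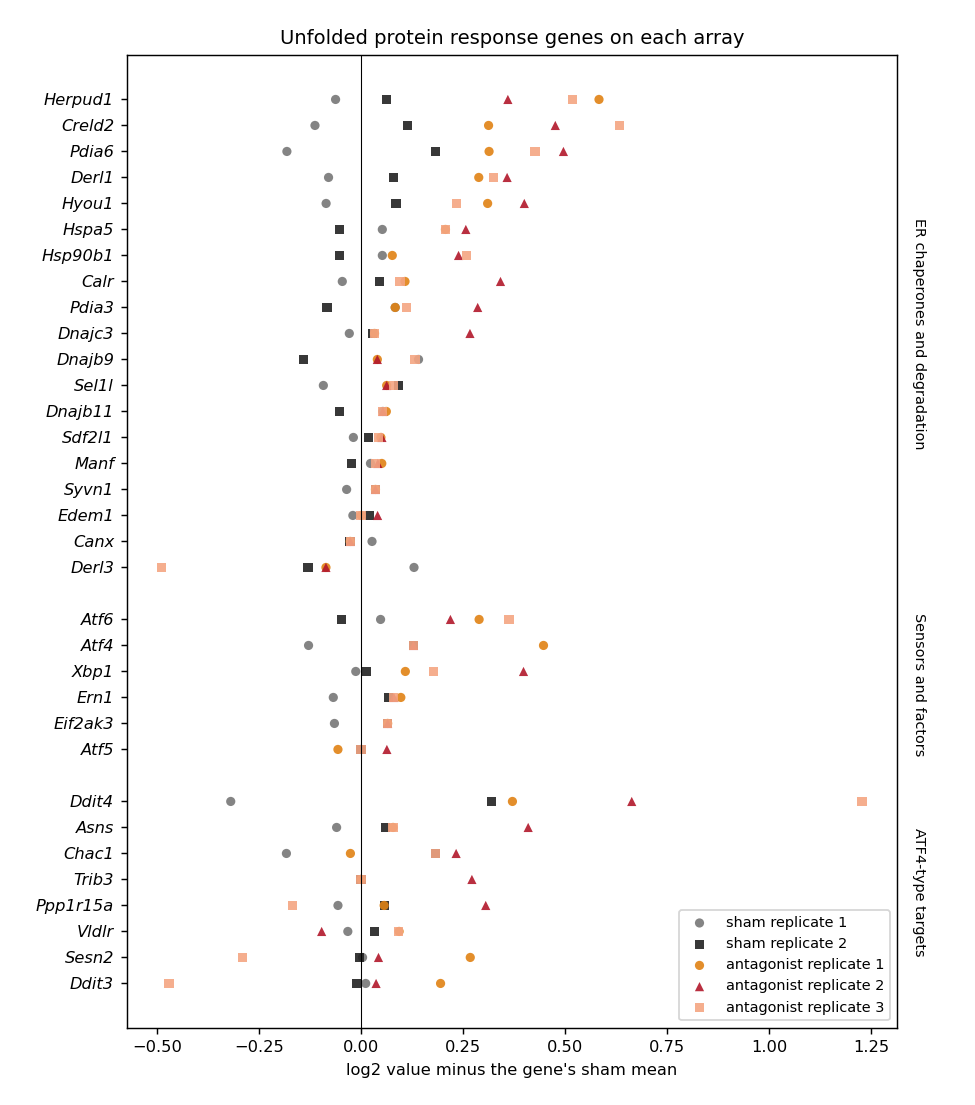
Log2 value of each of the 33 measured genes on each array, minus the gene's mean over the 2 sham arrays (x axis, log2), with genes grouped by role and sorted by difference (y axis). Grey and black symbols are sham arrays and coloured symbols antagonist arrays, and equal values lie on top of each other. For Herpud1 to Hyou1 at the top all antagonist arrays lie to the right of both sham arrays, whereas for Ddit3 and Sesn2 at the bottom the antagonist arrays lie on both sides.

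Chaperones and folding enzymes of the ER lumen made up most of the genes with separate groups. Of 13 measured, 12 were higher with the antagonist, by a median of 0.16 on the log2 scale, and for 9 the groups did not overlap. Of all genes tested, 47.7% were higher, and for 6.19% all antagonist arrays lay above both sham arrays. The median lay between 0.10, without antagonist replicate 2, and 0.21, without sham replicate 1. Hspa5, which encodes the HSP70 chaperone BiP that also holds the sensors inactive, measured 8.18 and 8.08 in the sham hearts and 8.33, 8.38 and 8.33 in the antagonist hearts. Every antagonist heart was above both sham hearts, the sham hearts were 0.10 apart, and the difference was 0.22 ± 0.04 (limma SE) or 1.17-fold. Hyou1, an HSP110-type partner of BiP that exchanges its nucleotide, measured 6.77 and 6.95 in sham and 7.17, 7.26 and 7.09 with the antagonist. Its groups were separate too, with a difference of 0.31 ± 0.08, or 1.24-fold. Hsp90b1 encodes GRP94, the HSP90 of the ER, and measured 10.64 and 10.53 in sham against 10.66, 10.82 and 10.84. Here antagonist replicate 1 lay close to sham replicate 1, and the difference was 0.19 ± 0.08.

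Creld2 and Pdia6 had the largest differences among the folding genes. Creld2, an ER-resident protein with disulfide isomerase activity, measured 6.77 and 7.0001 in sham and 7.20, 7.36 and 7.52 with the antagonist, a difference of 0.47 ± 0.13 or 1.39-fold. Pdia6, a disulfide isomerase that also acts on IRE1, measured 8.24 and 8.60 in sham and 8.74, 8.92 and 8.85 with the antagonist. For Pdia6 the sham hearts were 0.36 apart, nearly as far as the difference of 0.41 ± 0.14 between the groups, which was 0.23 without sham replicate 1. Calr, the lectin chaperone and calcium store calreticulin, measured 9.98 and 10.07 in sham and 10.14, 10.37 and 10.12 with the antagonist, and its difference of 0.18 ± 0.10 was 0.10 without antagonist replicate 2. Dnajc3, a J-protein that delivers clients to BiP, measured 8.12 and 8.18 and then 8.19, 8.42 and 8.19. Only antagonist replicate 2 stood clear of sham for Dnajc3, and without it the difference of 0.11 was 0.03.

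Differences were small for Sdf2l1, Manf and the J-proteins. Sdf2l1, a partner of the J-proteins, measured 5.22 and 5.25 in sham and 5.28, 5.29 and 5.28 with the antagonist, and Manf, a secreted ER stress protein, 5.08 and 5.04 and then 5.11, 5.10 and 5.10. The groups were separate for both genes, but the differences were only 0.05 ± 0.02 and 0.04 ± 0.02, or 1.03-fold each. Pdia3, the disulfide isomerase that works with calreticulin, overlapped between the groups because antagonist replicate 1 had the same value as sham replicate 1 (9.15), with a difference of 0.16 ± 0.09. The J-proteins Dnajb9 (0.07 ± 0.10) and Dnajb11 (0.06 ± 0.04) also overlapped, and the sign for Dnajb9 changed without sham replicate 2 (-0.07). Canx, the membrane-bound lectin chaperone calnexin, was the folding gene with a lower mean (-0.03 ± 0.02), at 10.54 on all 3 antagonist arrays and 10.59 and 10.54 in sham.

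Of 6 ER-associated degradation genes, Herpud1 and Derl1 were higher in every antagonist heart and the others were not, beside 6.19% of all genes tested. The median difference of the 6 was 0.05. Without sham replicate 1 it was -0.0032, and 2 of the 6 were then higher, beside 43.9% of all genes. Herpud1, which organises the ubiquitin ligase complex of the ER membrane, measured 10.18 and 10.30 in sham and 10.82, 10.60 and 10.76 with the antagonist. This was the widest gap between the groups among the 33 genes (0.30), and the difference was 0.49 ± 0.09 or 1.40-fold, between 0.42 and 0.55 with any single array left out. Derl1, a derlin of the channel through which substrates leave the ER, measured 7.76 and 7.92 in sham and 8.13, 8.20 and 8.16 with the antagonist, a difference of 0.32 ± 0.06. Its antagonist values lay within 0.07 of each other. The ubiquitin ligase gene Syvn1 (0.04 ± 0.03), its partner Sel1l (0.07 ± 0.06) and the mannosidase-like gene Edem1 (0.01 ± 0.02, with a second probe at 0.07) differed by little, with overlapping groups. Derl3, a derlin with the lowest values of the list (mean 3.70, near the level filter of 3.42), measured 3.96 and 3.70 in sham and 3.75, 3.75 and 3.35 with the antagonist. Its lower mean (-0.22 ± 0.18) leaned on 2 arrays: the difference was -0.09 without antagonist replicate 3 and also -0.09 without sham replicate 1.

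**Figure D2:**
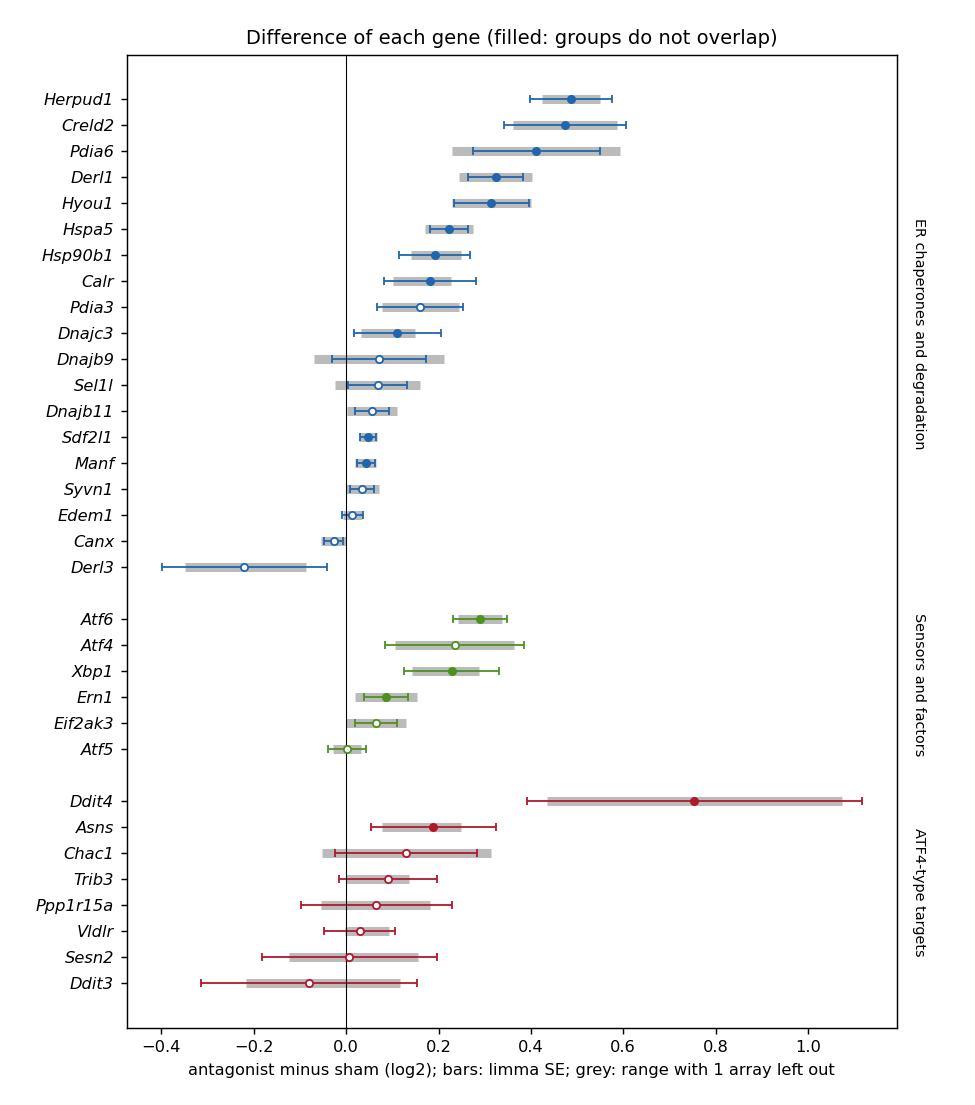
Difference of antagonist and sham means for each gene (x axis, log2; points), with limma's standard error as bars and, in grey, the range of the difference when each array in turn is left out; genes are grouped by role. Filled points mark the 16 genes whose groups do not overlap. Herpud1, Creld2, Pdia6, Derl1, Hyou1 and Hspa5 stay above 0 over their whole grey range, while most ATF4-type genes cross it.

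ER chaperone promoters are known to carry the ER stress response element (ERSE), in which CCAAT, bound by NF-Y, and CCACG, bound by ATF6 or XBP1, are held 9 bases apart. A second form, ERSE-II, has ATTGG and CCACG 1 base apart. ATF4 acts through C/EBP-ATF elements with the core TGATGNAA. RefSeq promoter windows of assembly GRCm38.p6, from 250 bases before to 50 after the transcription start, were found for 30 of the 34 genes (not Hyou1, Manf, Derl1 or Atf6) and searched for exact matches on both strands. The windows below, cut at the start site, are those of the genes with a match and the largest absolute difference, printed 5′ to 3′ on the strand of the gene with matches in capitals. Asns was added after its values were seen, as the ATF4-type gene with a match that differed most. They lie at chr8:94386179-94386428 on the plus strand for Herpud1, chr15:88819396-88819645 on the plus strand for Creld2, chr12:17266339-17266588 on the plus strand for Pdia6 and chr2:34771840-34772089 on the plus strand for Hspa5. Those of Derl3, Hsp90b1 and Asns lie at chr10:75893148-75893397 on the plus strand, chr10:86705445-86705694 on the minus strand and chr6:7693210-7693459 on the minus strand.
Herpud1: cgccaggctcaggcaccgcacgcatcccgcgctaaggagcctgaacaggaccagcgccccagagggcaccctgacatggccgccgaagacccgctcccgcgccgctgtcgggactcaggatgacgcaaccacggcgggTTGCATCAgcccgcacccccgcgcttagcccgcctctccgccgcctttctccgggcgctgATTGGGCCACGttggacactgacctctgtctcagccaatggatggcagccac
Creld2: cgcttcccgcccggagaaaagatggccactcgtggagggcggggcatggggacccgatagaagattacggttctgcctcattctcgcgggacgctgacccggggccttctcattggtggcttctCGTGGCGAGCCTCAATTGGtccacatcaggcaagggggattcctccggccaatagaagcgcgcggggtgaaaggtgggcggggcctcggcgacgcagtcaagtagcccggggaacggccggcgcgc
Pdia6: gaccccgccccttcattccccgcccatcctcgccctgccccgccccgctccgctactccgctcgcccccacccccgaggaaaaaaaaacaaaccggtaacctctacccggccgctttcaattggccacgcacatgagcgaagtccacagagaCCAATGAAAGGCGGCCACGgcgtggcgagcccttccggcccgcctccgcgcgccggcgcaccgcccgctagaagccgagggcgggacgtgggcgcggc
Hspa5: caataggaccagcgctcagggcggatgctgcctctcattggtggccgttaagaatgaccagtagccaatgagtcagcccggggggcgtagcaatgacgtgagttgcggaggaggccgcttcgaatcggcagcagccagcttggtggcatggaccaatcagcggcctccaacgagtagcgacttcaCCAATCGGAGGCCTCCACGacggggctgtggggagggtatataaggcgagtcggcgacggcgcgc
Derl3: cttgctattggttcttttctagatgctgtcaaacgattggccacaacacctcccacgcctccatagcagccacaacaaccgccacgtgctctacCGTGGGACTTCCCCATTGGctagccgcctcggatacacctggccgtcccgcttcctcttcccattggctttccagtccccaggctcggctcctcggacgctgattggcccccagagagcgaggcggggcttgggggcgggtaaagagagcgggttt
Hsp90b1: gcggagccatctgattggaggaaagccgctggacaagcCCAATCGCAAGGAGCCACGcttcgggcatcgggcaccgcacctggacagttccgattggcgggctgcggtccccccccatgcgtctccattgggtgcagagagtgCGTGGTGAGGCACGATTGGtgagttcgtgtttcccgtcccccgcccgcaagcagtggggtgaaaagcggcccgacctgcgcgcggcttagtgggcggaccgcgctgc
Asns: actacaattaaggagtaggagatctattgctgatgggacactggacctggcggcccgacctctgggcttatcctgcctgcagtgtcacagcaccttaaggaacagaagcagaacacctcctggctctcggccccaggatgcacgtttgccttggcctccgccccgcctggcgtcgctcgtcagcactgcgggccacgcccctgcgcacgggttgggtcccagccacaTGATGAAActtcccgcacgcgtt

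The capitals mark 1 ERSE each in Creld2, Pdia6, Hspa5 and Derl3 and 2 in Hsp90b1. In Creld2, Derl3 and the second match of Hsp90b1 the element lies on the opposite strand. In Herpud1 they mark an ATF4-type core on the opposite strand and then ERSE-II, and in Asns an ATF4-type core close to the start. Exact ERSE matches were found in 9 of the 17 chaperone and degradation genes with a window (Hspa5, Hsp90b1, Calr, Canx, Pdia6, Creld2, Dnajc3, Syvn1 and Derl3), in 0 of 5 sensors and factors and in 0 of 8 ATF4-type genes, beside 0.137% of all 27025 genes in the table. ERSE-II was found in Herpud1 and Dnajb11, beside 0.044% of genes. The core TGATGNAA was found in 4 of 8 ATF4-type genes (Trib3, Asns, Chac1 and Vldlr) and in Herpud1, beside 4.51% of genes. The XBP1 core TGACGTGG and the longer TGATGNAAT were found in 0 of the 30. The short CCACG, which ERSE and ERSE-II contain, was found in 24 of 30 (80.0%), beside 35.5% of genes, and the E-box CACGTG in 3 (10.0%), beside 8.09%. The cyclic AMP element TGACGTCA was found in Ppp1r15a, beside 2.03% of genes, and the core AGGTCA, which REV-ERB receptors bind next to an A/T-rich flank, in 5 of 30 (16.7%), beside 18.1%. A match is a stretch of letters and does not show that a factor was bound in these hearts.

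**Figure D3:**
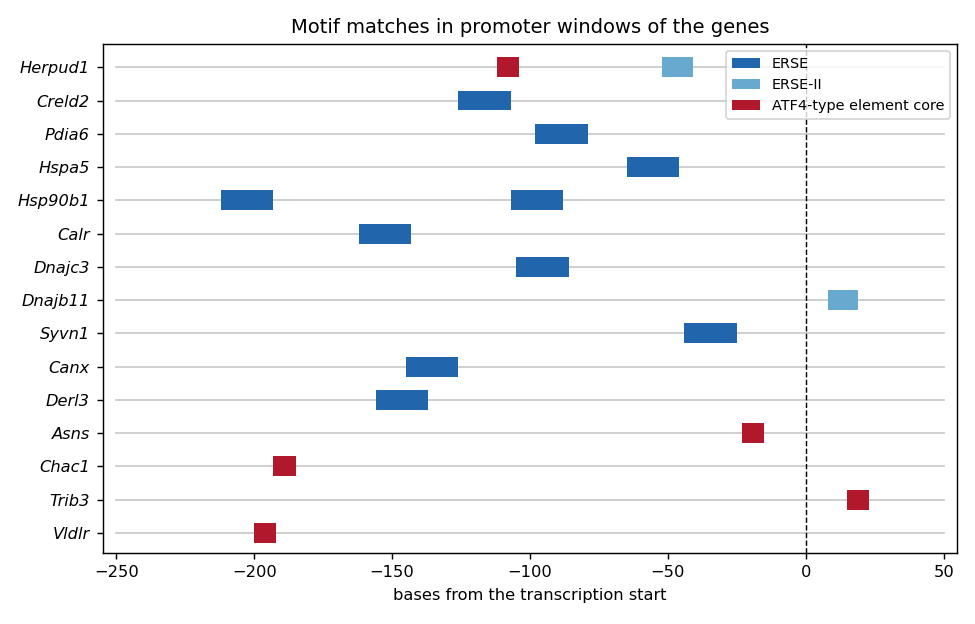
Position of exact matches to ERSE, ERSE-II and the ATF4-type core TGATGNAA in the promoter windows (x axis, bases from the transcription start, dashed line) of the genes that hold one (y axis, by role and difference). ERSE matches of the chaperone and degradation genes all lie before the start, as do 4 of the 5 ATF4-type cores, while that of Trib3 lies after it.

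Differences were seen with and without an element. Among 11 measured chaperone and degradation genes with ERSE or ERSE-II the median difference was 0.18 and the groups were separate, with the antagonist higher, for 7. Among the 5 measured without a match the median was 0.07 and the groups were separate for 1. Of all tested genes with a window, 6.12% had separate groups with the antagonist higher. Hyou1 (0.31), Derl1 (0.32) and Manf (0.04) had no window and are in neither set, and the groups were separate for each of them. Yet Canx (-0.03), Syvn1 (0.04) and Derl3 (-0.22) carry ERSE and differed little or were lower. Of 9 other tested genes with an ERSE, 7 were higher and 2 lower, by a median of 0.02, and the groups were separate for 1 gene in each direction (Hnrnpa3 at 0.17 and Xlr3a at -0.28, named after their values were seen).

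For 3 of the 6 sensors and factors, Atf6, Xbp1 and Ern1, all antagonist hearts lay above both sham hearts, beside 6.19% of all genes tested. Atf6 measured 9.31 and 9.21 in sham and 9.55, 9.48 and 9.62 with the antagonist, a difference of 0.29 ± 0.06 (limma SE) or 1.22-fold, between 0.24 and 0.34 with single arrays left out. Xbp1 measured 7.96 and 7.99 in sham and 8.09, 8.38 and 8.16 with the antagonist. The Xbp1 difference of 0.23 ± 0.10 was 0.14 without antagonist replicate 2, which was its highest array. The array gives 1 value for Xbp1 and does not separate the spliced from the unspliced mRNA, so activity of IRE1 was not measured, and cleavage of ATF6 protein is not seen in RNA.

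The genes of the other sensors differed by less. Ern1, which encodes IRE1, measured 6.10 and 6.24 in sham and 6.27, 6.25 and 6.25 with the antagonist. Its groups were separate by 0.01, and its difference of 0.09 ± 0.05 was 0.02 without sham replicate 1. Eif2ak3, which encodes PERK, measured 5.37 and 5.50 in sham and 5.50 on all 3 antagonist arrays, so that only sham replicate 1 stood apart. Atf4 measured 7.67 and 7.93 in sham and 8.25, 7.93 and 7.93 with the antagonist, where sham replicate 2 and 2 antagonist arrays were level. The difference of 0.23 ± 0.15 therefore followed from the low sham replicate 1 and the high antagonist replicate 1. Atf5, a related factor, gave 0.0022 ± 0.04 with overlapping groups. All 6 means were higher, with a median of 0.16, which was 0.06 without sham replicate 1 and 0.20 without sham replicate 2.

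Targets of ATF4 gave mixed values. Of 8 measured, 7 had a higher mean, by a median of 0.08. The groups were separate for 2 (25.0%), Ddit4 and Asns, both higher, beside 6.19% of all genes tested. Of the 8, 0 reached the lowest permutation p of 0.10, for which no share of all genes is given. Ddit4 encodes REDD1, an inhibitor of mTORC1 that is also known to respond to hypoxia and glucocorticoids. It measured 5.42 and 6.06 in sham and 6.12, 6.41 and 6.97 with the antagonist, the largest difference of all 33 genes (0.75 ± 0.36, or 1.69-fold). The sham hearts were 0.64 apart and sham replicate 2 lay 0.05 below the lowest antagonist heart, so the difference was 0.43 without sham replicate 1 and 0.52 without antagonist replicate 3. Asns, the asparagine synthetase gene, measured 4.88 and 5.004 in sham and 5.02, 5.35 and 5.02 with the antagonist, and its difference of 0.19 ± 0.14 was 0.08 without antagonist replicate 2.

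Ddit3, which encodes the death-linked factor CHOP, had a lower mean with the antagonist. It measured 7.45 and 7.43 in sham and 7.64, 7.48 and 6.97 with the antagonist, so that replicate 3 lay below and the other 2 above sham, and the difference of -0.08 ± 0.23 was 0.12 without replicate 3. For the remaining 5 genes the groups overlapped: the pseudokinase gene Trib3 (0.09 ± 0.11), the glutathione-degrading Chac1 (0.13 ± 0.15), Ppp1r15a, which encodes the eIF2 alpha phosphatase subunit GADD34 (0.06 ± 0.16), the lipoprotein receptor gene Vldlr (0.03 ± 0.08) and the mTORC1 regulator Sesn2 (0.0064 ± 0.19). Trib3 had the same value (4.36) on all arrays but antagonist replicate 2. Each of these 5 changed sign, or came to 0, with some array left out.

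Set side by side, the chaperone and degradation genes had a median difference of 0.11 and the ATF4-type genes of 0.08, beside 0 for all genes tested. The medians were thus 0.03 apart. By group means the differences were 0.16 for the chaperone and degradation genes and 0.15 for the ATF4-type genes. The SD of these means between arrays within treatment groups was 0.03 and 0.09. The mean of the 19 chaperone and degradation genes, as a deviation from each gene's mean over all arrays, was -0.10 and -0.08 in the sham hearts and 0.04, 0.10 and 0.05 in the antagonist hearts. For the 8 ATF4-type genes it was -0.17 and -0.0094 in sham and 0.04, 0.14 and -0.0074 with the antagonist, so that sham replicate 2 and antagonist replicate 3 were almost level. With each array left out in turn the chaperone median lay between 0.09 and 0.15. The ATF4-type median lay between 0.0093 and 0.15, and its lowest value was without sham replicate 1. The sign held in all 5 of these comparisons for 14 of 19 chaperone and degradation genes and for 2 of 8 ATF4-type genes. The 14 include Derl3, which stayed lower. A difference that came to 0, as for Syvn1 and Trib3, counted as not held, and no share of all genes is given beside these counts. The members were chosen with earlier results of these data known, so these counts are a description and carry no test.

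**Figure D4:**
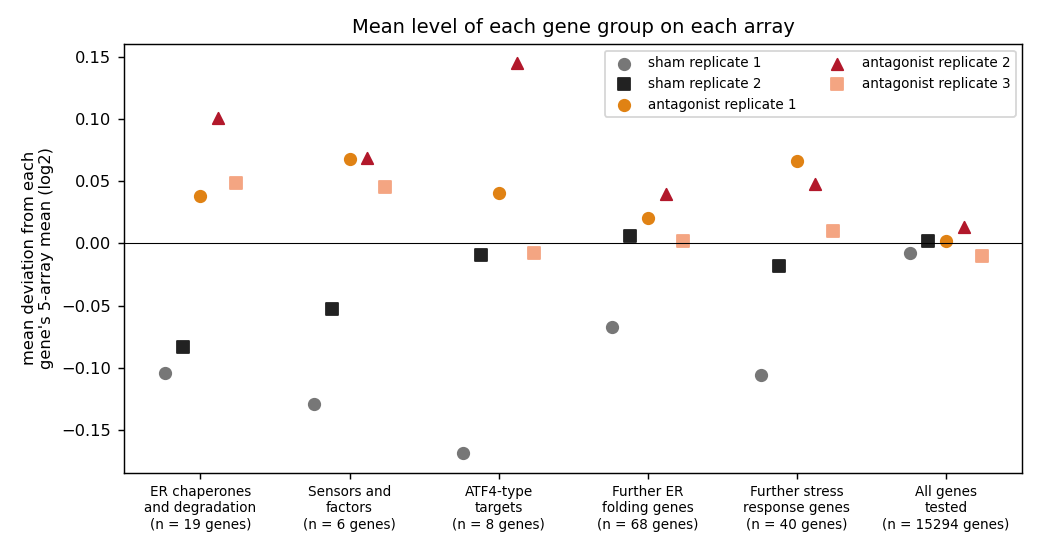
Mean over the genes of each group of the deviation from the gene's 5-array mean (y axis, log2) on each array (symbols), for the 3 groups of the list, the 2 further lists and all genes tested (x axis). For the chaperone and degradation genes both sham arrays lie at or below -0.08 and all antagonist arrays at or above 0.04, whereas for the ATF4-type genes sham replicate 2 is level with antagonist replicate 3.

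Other genes of the same pathways were mostly higher as well. Of 68 measured genes of ER translocation, glycosylation, folding and degradation outside the list, 50 were higher and 16 lower, by a median of 0.04. Of all genes tested, 47.7% were higher and 46.3% lower. The antagonist arrays lay above sham for 9 (13.2%) and below for 2, beside 6.19% and 6.33% of all genes tested. Without sham replicate 1 only 41 of the 68 were higher and the median was 0.01, and without sham replicate 2 it was 0.07. The antagonist arrays then lay above sham for 16 and 34 of the 68, beside 19.6% and 28.1% of all genes. With a single antagonist array left out, the remaining ones lay above sham for 11 to 14, beside 8.37% to 9.25% of all genes. With limma 0 of the 68 passed over all genes, and 0 were under an unadjusted p of 0.05. The genes of smallest p were Spcs1, of the signal peptidase (0.34 ± 0.13), Ssr2, of the translocon (0.12 ± 0.05), and Mbtps1, the site-1 protease that cuts ATF6 (0.17 ± 0.07), all higher. On the lower side they were the translocon subunit gene Sec61g (-0.13 ± 0.05), the vesicle fusion gene Bet1 (-0.29 ± 0.15) and the prolyl isomerase gene Fkbp7 (-0.26 ± 0.16).

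Among 40 measured further genes of the integrated stress response, 30 were higher and 10 lower, by a median of 0.09. The antagonist arrays lay above sham for 11 (27.5%) and below for 1, beside 6.19% and 6.33% of all genes tested. The median was 0.03 without sham replicate 1 and 0.13 without sham replicate 2, where the antagonist arrays lay above sham for 23 of the 40 (57.5%), beside 28.1% of all genes. Limma called 0 of the 40 over all genes. At an unadjusted limma p under 0.05 there were 5 higher and 1 lower, beside 2.23% and 2.37% of all genes. Slc3a2, the shared heavy chain of amino acid transporters, measured 7.92 and 7.93 in sham and 8.21, 8.18 and 8.14 with the antagonist (0.25 ± 0.03). Ppp1r15b, the constitutive partner of the eIF2 alpha phosphatase, measured 6.55 and 6.52 and then 6.76, 6.82 and 6.70 (0.22 ± 0.04). The tryptophanyl-tRNA synthetase gene Wars followed (0.16 ± 0.03). Eif4ebp1, a repressor of translation, was lower in every antagonist heart (-0.13 ± 0.04), while the kinase gene Eif2ak2 (-0.23 ± 0.14) and Pck2 (-0.12 ± 0.08) had lower means with overlapping groups.

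**Figure D5:**
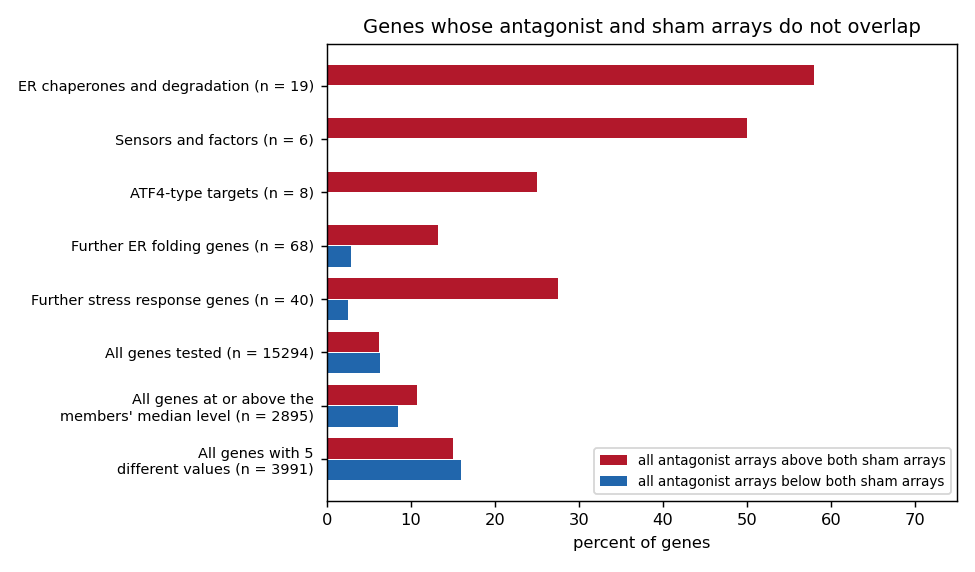
Percent of genes (x axis) whose antagonist arrays all lie above (red) or all lie below (blue) both sham arrays, for each group of genes and for 3 backgrounds (y axis, with the number of genes). The chaperone and degradation genes reach 57.9% above and none of the 33 listed genes lies below, beside 6.19% above and 6.33% below for all genes tested.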

How the data were processed

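Total RNA of 5 hearts (300 ng each, per the labels' protocols) was hybridised to Affymetrix whole-transcript arrays. The deposited values are log2 expression made with RMA, per the submitters' processing notes. Version, probe set library and build: not given in the sources used here. Of 41345 probes, 23521 carried 1 symbol in the platform annotation. Genes below the 40th percentile of probe means (3.42) were left out. For the other 15294 the groups were fitted in limma 3.58.1 under R 4.3.3 (lmFit and eBayes, group as the only term, two-sided), with p-values adjusted by Benjamini-Hochberg over these genes, a threshold of 0.05, and 3 residual and 0.69 prior degrees of freedom. Differences are antagonist minus sham. The labels call the arrays biological replicates without naming separate animals, so p-values measure only the spread between these arrays.

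The members and lists were chosen with earlier results of these data known. Per-array values are given for members whose groups did not overlap, for the 2 largest differences against the list's direction, and for Xbp1, Atf6, Ern1, Eif2ak3 and Atf4; the further lists name the 3 genes of smallest p per direction. Canx, whose ties decide its value, was added after seeing the data. Scripts were tested on simulated data. Alternatives covered the level filter, median centring, another quantile normalization, averaging of probes, array weights, the trend and robust options of eBayes, a replicate block and each array left out. Protein sequences were not used here.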

Additional observations from a re-analysis of the deposited data

How the results depend on the processing

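The medians of the chaperone and degradation genes, the sensors and factors, and the ATF4-type genes stayed above 0 under every alternative run. That of the degradation genes alone was -0.0032 without sham replicate 1. Limma called 0 genes except without a sham array. Leaving out each array in turn gave 0 to 2058 genes called, 0 to 7 listed genes called, 25 to 30 listed genes with a higher mean, and 17 to 25 with separate groups in either direction, beside 17.6% to 52.7% of all genes. The highest count and share were both without sham replicate 2. The median difference then lay between 0.086 and 0.15 for chaperone and degradation genes, 0.062 and 0.20 for sensors and factors, and 0.0093 and 0.15 for ATF4-type genes, and the first exceeded the last by 0.0045 to 0.13. The difference of Ddit3 ranged from -0.22 to 0.12. With the replicate number as a block the chaperone median was 0.15 and Ddit3 turned to 0.12. The deviations of same-numbered arrays correlated at -0.11 and 0.03. With 2 sham arrays, whose deviations mirror each other, these values cannot show whether the numbers pair the arrays. Restricted to genes with 5 different values (chosen after the data were seen), 14 of 15 listed genes were higher, beside 51.1% of all such genes. The medians were 0.31 for the 9 chaperone and degradation genes left and 0.26 for the 2 factors left. The first exceeded the median of the 4 ATF4-type genes left by 0.30. Median centring and another quantile normalization gave 18 and 14 of the 33 genes separate groups, but these settings break ties, and 24.6% and 22.4% of all genes then had them too. Precision is limited by having 5 arrays.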
